A study of Mus musculus with 6 samples.

Results

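The 10 genes described here encode regulators of mitochondrial apoptosis, namely the BH3-only genes Bmf, Bcl2l11, Bbc3, Pmaip1, Bad, Bid and Bik and the prosurvival BCL2 family genes Bcl2, Bcl2l1 and Mcl1. They were chosen by name, and each matched 1 of the 55401 Ensembl gene identifiers in the count files. Bulk RNA-Seq of poly(A)-selected RNA had been performed on NIH3T3 cells, a mouse fibroblast line that was established from embryos and grows indefinitely in culture. The groups were cells with an empty vector and DMSO (EV, 2 libraries), cells with the TAZ-CAMTA1 fusion and DMSO (TC, 1 library) and cells with TAZ-CAMTA1 and 10 μM aurintricarboxylic acid (TC + ATA, 3 libraries). Treatment lasted 48 h and began 16 h after seeding. TAZ-CAMTA1 joins the TEAD coactivator TAZ to CAMTA1 and is the fusion protein of epithelioid hemangioendothelioma, and aurintricarboxylic acid (ATA) was under study as a disruptor of the binding of TAZ to TEAD. The study describes its TC cells as stably expressing the fusion, and whether they were 1 clone or a pool is not given in the sources used here. Empty vector cells with ATA were not analysed here, so an effect of ATA that needs the fusion and one that does not cannot be told apart.

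BCL2 family proteins decide at the outer mitochondrial membrane whether a cell commits to apoptosis. The prosurvival proteins BCL2, BCL-XL and MCL1 hold the pore-forming effectors BAX and BAK in check, and BH3-only proteins respond to stress by occupying the prosurvival proteins or by engaging the effectors directly. Several BH3-only genes are switched largely at transcription, among them Bmf and Bcl2l11 on loss of adhesion or growth factors and Bbc3 and Pmaip1 on p53 activation, whereas BAD is regulated by phosphorylation and BID by proteolytic cleavage.

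In GRCm38, the build of the deposited counts, Bmf, Bcl2l11 and Bcl2l1 lie on chromosome 2, from 118528757 to 118549687, from 128126038 to 128162547 and from 152780668 to 152831728. Mcl1 lies on chromosome 3 from 95658788 to 95663176, Bid on chromosome 6 from 120891930 to 120916853 and Bad on chromosome 19 from 6941861 to 6951899. Bcl2 lies on chromosome 1 from 106538178 to 106714274, Bbc3 on chromosome 7 from 16308393 to 16318205 and Bik on chromosome 15 from 83526862 to 83544634. RefSeq promoter entries of GRCm38.p6 were taken for 8 of the 10 genes, with 16 annotated start sites in all. Pmaip1 was left out of these positions and of the search, and no entry was found for Bik. The 250 bases before each start were searched on both strands for GGAATG, the core of the TEAD motif, for GTAAACA, a FOXO motif, for TGANTCA, the AP-1 motif, and for the E-box CACGTG. The TEAD core GGAATG was found in 2 of the 16 windows, and 12.6% of the 32851 mouse windows of this length hold it. GTAAACA was also found in 2 windows (3.17% of all mouse windows), TGANTCA in 0 (6.75% of all) and CACGTG in 1 (6.02% of all), and no match overlapped another. The windows before the outermost start are printed 5′ to 3′ on the strand of the gene for Bmf, which had the largest change, for Bcl2l11, and for both prosurvival genes that rose with TC. Capitals mark the matches. They were GTAAACA in Bcl2l11 from 227 bases before the start, GGAATG in Bcl2l1 from 108 bases before it and the reverse complement CATTCC in Mcl1 from 199 bases before it. The other match of GTAAACA and that of CACGTG lay in windows of Bbc3, which are not printed. The window of Bid, which rose most with TC among the members, held no match and is not printed either. Bbc3 had a log2 fold change of −0.12 in TC versus EV. A match describes these letters and not a bound site.
Bmf, chr2:118549687-118549936, minus strand: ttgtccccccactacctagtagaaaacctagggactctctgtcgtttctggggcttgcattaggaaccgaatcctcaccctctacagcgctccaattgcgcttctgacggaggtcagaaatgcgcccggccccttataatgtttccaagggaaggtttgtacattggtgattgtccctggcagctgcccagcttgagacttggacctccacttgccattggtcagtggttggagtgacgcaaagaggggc
Bcl2l11, chr2:128125788-128126037, plus strand: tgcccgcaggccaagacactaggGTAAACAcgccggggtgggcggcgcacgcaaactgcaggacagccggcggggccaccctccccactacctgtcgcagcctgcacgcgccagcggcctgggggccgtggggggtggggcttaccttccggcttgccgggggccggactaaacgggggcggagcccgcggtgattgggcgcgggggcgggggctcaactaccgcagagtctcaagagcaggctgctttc
Bcl2l1, chr2:152831729-152831978, minus strand: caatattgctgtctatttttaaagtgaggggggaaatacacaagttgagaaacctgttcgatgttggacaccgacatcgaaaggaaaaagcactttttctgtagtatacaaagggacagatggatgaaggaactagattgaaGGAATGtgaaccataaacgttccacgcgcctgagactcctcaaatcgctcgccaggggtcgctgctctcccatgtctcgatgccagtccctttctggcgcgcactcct
Mcl1, chr3:95658471-95658720, plus strand: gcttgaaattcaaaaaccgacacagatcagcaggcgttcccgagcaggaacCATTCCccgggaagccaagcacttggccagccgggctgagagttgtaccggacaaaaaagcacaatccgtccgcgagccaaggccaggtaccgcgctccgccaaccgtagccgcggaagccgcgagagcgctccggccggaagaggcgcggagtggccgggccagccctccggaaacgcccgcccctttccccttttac

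Library totals ran from 58471484 to 74413193 counts. The 3 TC + ATA libraries resembled each other most (chi-square per degree of freedom of 5.86 to 6.61 for their pairs), against 61.3 for the EV pair, and TC differed from each of them by 22.8 to 24.7, less than the EV libraries differed from each other. The labels do not say whether the libraries of a group came from separate cultures, so p-values measure the spread between these libraries, which may be technical, and TC has no replicate of its own. The summed level of 8 fibroblast markers was 14700 to 16800 CPM in EV, 18600 CPM in TC and 18200 to 19400 CPM in TC + ATA. Col1a1, Col1a2 and Vim, which carry most of this sum, were higher in TC than in both EV libraries, Col3a1 lay between them, and Fn1, Pdgfra, Pdgfrb and Thy1 were lower, with 404 and 422 CPM of Pdgfra in EV against 180 CPM in TC and 204 and 183 CPM of Thy1 against 69.6 CPM. The part of these marker levels in the results was not tested. Here CPM are counts scaled to a library of 1e6 after TMM normalization. The summed levels of 4 epithelial, 4 endothelial and 4 blood cell markers were at most 0.494, 3.45 and 8.51 CPM in any library. Mouse Wwtr1, which encodes TAZ, had a log2 fold change of 0.37 in TC versus EV (SE 0.08, edgeR adjusted p = 0.00697) and Camta1, the other partner, of 0.16 (SE 0.13, edgeR adjusted p = 0.411), and these counts do not separate the introduced sequence from the endogenous gene.

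TC expression was accompanied by lower transcript levels of the BH3-only genes Bmf, Bcl2l11, Pmaip1 and Bad and by higher levels of Bid and of the prosurvival genes Bcl2l1 and Mcl1. All 10 members passed the filter on low counts. At an adjusted p of at most 0.05 from edgeR, 3 of the 10 were called higher in TC than in EV and 4 lower, whereas over all 18539 genes tested the shares were 14.8% higher and 13.2% lower. The median log2 fold change of the members was −0.12, beside −0.03 for all genes tested. With the further limit of 2 on the absolute log2 fold change that the study used, 1 member remained, Bmf, against 3.64% of all genes tested. Fewer transcripts per cell and fewer cells that transcribe a gene cannot be told apart in such bulk samples.

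Bmf, whose protein is held at actin-bound myosin motors and is released when cells lose attachment, fell most. It had 10.4 and 9.68 CPM in EV, 0.836 CPM in TC and 3.61, 2.86 and 2.85 CPM in TC + ATA. The 3 groups did not overlap, with EV highest and TC lowest. The TC value rested on 58 counts, with an exact 95% counting interval of 0.634 to 1.08 CPM. Bmf was 12-fold lower in TC than in EV (log2 fold change −3.58, SE 0.24, edgeR adjusted p = 1.02e-05).

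**Figure D1:**
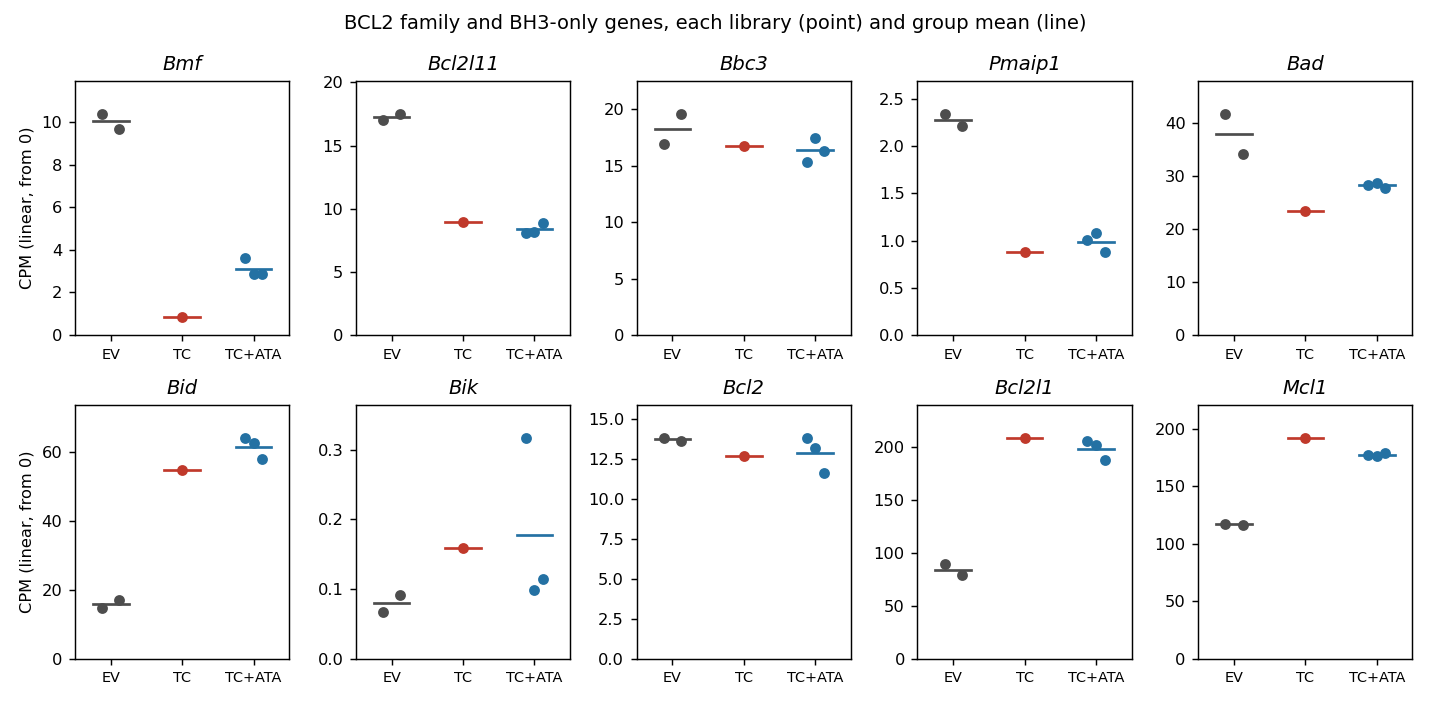
Level of each of the 10 genes in CPM (y axis, linear from 0, with its own scale per gene) in the 2 EV, 1 TC and 3 TC + ATA libraries. Points are libraries and lines are group means, and the TC + ATA libraries of Bmf (2.85 to 3.61 CPM) lie between the TC library (0.836 CPM) and EV (9.68 and 10.4 CPM).

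Bcl2l11, which encodes BIM, a BH3-only protein that binds all the prosurvival members, had 17.0 and 17.5 CPM in EV, 8.92 CPM in TC and 8.08, 8.15 and 8.90 CPM in TC + ATA. Both EV libraries lay above all the TC-expressing ones. It was 1.93-fold lower in TC than in EV (log2 fold change −0.95, SE 0.12, edgeR adjusted p = 0.000511). The counts are per gene and do not separate the long and short forms of BIM.

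Pmaip1, which encodes NOXA, a BH3-only protein that binds MCL1, was low throughout, with 2.34 and 2.22 CPM in EV, 0.879 CPM in TC and 1.00, 1.09 and 0.877 CPM in TC + ATA. The EV libraries were again the highest. In TC versus EV its log2 fold change was −1.37 (SE 0.32, edgeR adjusted p = 0.011). The call was lost with only the EV and TC libraries in DESeq2 (adjusted p = 0.0722 from DESeq2) and with the replicate block (adjusted p = 0.0597 from edgeR).

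Bad, which encodes a BH3-only protein that is sequestered by 14-3-3 proteins when survival kinases phosphorylate it, had 41.6 and 34.2 CPM in EV, 23.3 CPM in TC and 28.2, 28.7 and 27.7 CPM in TC + ATA. The TC + ATA libraries lay between the TC library and the EV libraries. Bad was 1.62-fold lower in TC than in EV (log2 fold change −0.70, SE 0.12, edgeR adjusted p = 0.00294). Its exons share 524 of 2558 bases with Gpr137 on the opposite strand, which had a log2 fold change of −0.32 in the same comparison (edgeR adjusted p = 0.0556), and the part of shared reads in the change of Bad was not tested.

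Bid was the BH3-only gene that moved the other way. Its protein links death receptors to mitochondria once caspase-8 has cleaved it. Bid had 14.7 and 17.2 CPM in EV, 54.7 CPM in TC and 64.0, 62.5 and 58 CPM in TC + ATA, so that every TC-expressing library lay above both EV libraries. It was 3.43-fold higher in TC than in EV (log2 fold change 1.78, SE 0.11, edgeR adjusted p = 5.01e-06). Bcl2l13 overlaps 628 of the 3550 exonic bases of Bid on the opposite strand, and its log2 fold change was 0.35 in this comparison.

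Bbc3 and Bik were not called. Bbc3, which encodes the p53-inducible protein PUMA, had 16.9 and 19.6 CPM in EV, 16.8 CPM in TC and 15.3 to 17.5 CPM in TC + ATA. In TC versus EV its log2 fold change was −0.12, with a 95% interval of −0.41 to 0.17 (edgeR adjusted p = 0.539). Bik was barely detected, with 5 and 7 counts in EV, 11 in TC and 18, 7 and 8 in TC + ATA. At this depth its change in TC could lie anywhere from −1.29 to 3.25 on the log2 scale (95% interval).

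Among the prosurvival genes, Bcl2l1 and Mcl1 rose and Bcl2 was not called. Bcl2l1, which encodes BCL-XL, had 89.1 and 78.9 CPM in EV, 208 CPM in TC and 205, 201 and 187 CPM in TC + ATA. Every library with the fusion had more than any EV library. The increase in TC was 2.48-fold (log2 fold change 1.31, SE 0.10, edgeR adjusted p = 1.58e-05), and the counts cover both BCL-XL and its short proapoptotic splice form.

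Mcl1, whose protein turns over rapidly and depends on continued synthesis, had 117 and 117 CPM in EV, 192 CPM in TC and 177, 176 and 179 CPM in TC + ATA. TC was highest and EV lowest, without overlap. Mcl1 was 1.64-fold higher in TC than in EV (log2 fold change 0.72, SE 0.07, edgeR adjusted p = 0.00012).

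Bcl2 itself had 13.8 and 13.6 CPM in EV, 12.7 CPM in TC and 13.8, 13.2 and 11.7 CPM in TC + ATA. Its libraries overlapped between EV and TC + ATA. In TC versus EV its log2 fold change was −0.12, with a 95% interval of −0.41 to 0.18 (edgeR adjusted p = 0.568).

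**Figure D2:**
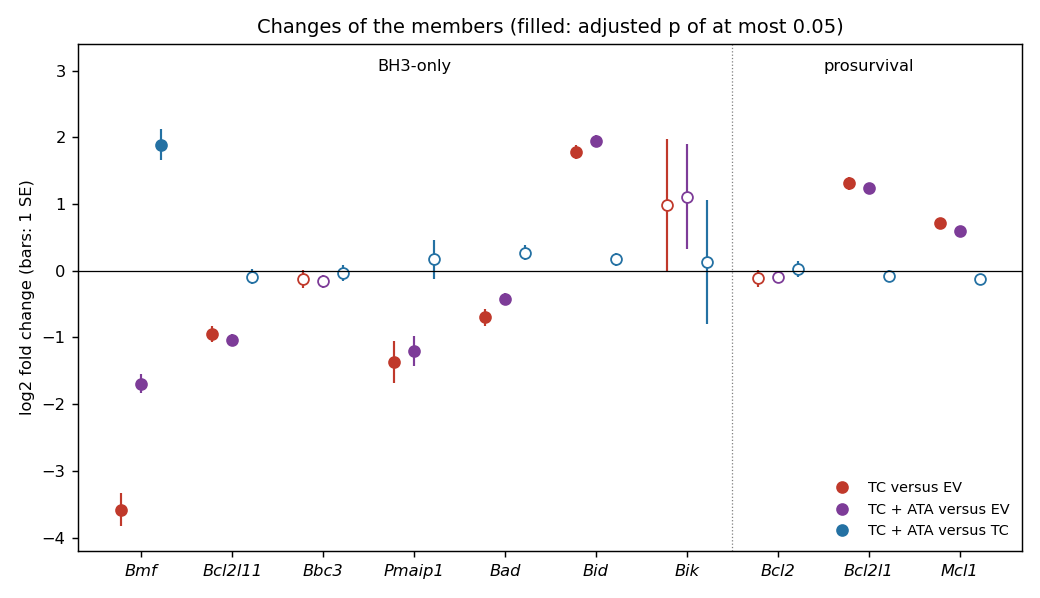
Log2 fold changes of the 10 genes (y axis) in TC versus EV, TC + ATA versus EV and TC + ATA versus TC, with bars of 1 SE and filled points for genes called at an adjusted p of at most 0.05 from edgeR. Bmf (1.89) is the filled point in TC + ATA versus TC, a comparison that shares the TC library with TC versus EV, and the wide bars of Bik reflect its low counts.

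Levels were compared between genes only after division by the exonic length (CPM per kilobase). In EV, Mcl1 had the highest mean level at 34.2 CPM per kilobase, followed by Bcl2l1 (18.3), Bad (14.8), Bbc3 (8.58), Bid (4.49), Bcl2l11 (2.15), Bmf (1.91), Bcl2 (1.5), Pmaip1 (0.834) and Bik (0.0499). The ranges over the libraries of a group did not overlap between any neighbours in this order in EV or in the order of TC + ATA, with this length. Bcl2 transcripts thus ranked far below those of Mcl1 and Bcl2l1 in every group. In TC, Bid moved from the fifth place to the third at 15.4 CPM per kilobase, and Bmf from the seventh to the ninth at 0.159. In TC + ATA, Bmf stood in the eighth place at 0.591 CPM per kilobase, above Pmaip1 at 0.362. The place of Mcl1 above Bcl2l1 depended on the length used in TC and TC + ATA, and in EV only the separation of their libraries did. By the longest transcript, Bcl2l1 had 34.7 and 30.7 and Mcl1 34.2 and 34.2 CPM per kilobase in EV, so that they overlapped. By the same measure Bcl2l1 stood above Mcl1 in TC, at 81.1 against 56.3, and in TC + ATA, at 72.9 to 79.8 against 51.6 to 52.3. Bcl2l11 and Bcl2 depended on the length as well. By the longest transcript, Bcl2l11 stood above Bcl2 in TC, at 1.771 against 1.763. In TC + ATA their libraries overlapped, at 1.604 to 1.767 for Bcl2l11 and 1.62 to 1.923 for Bcl2.

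**Figure D3:**
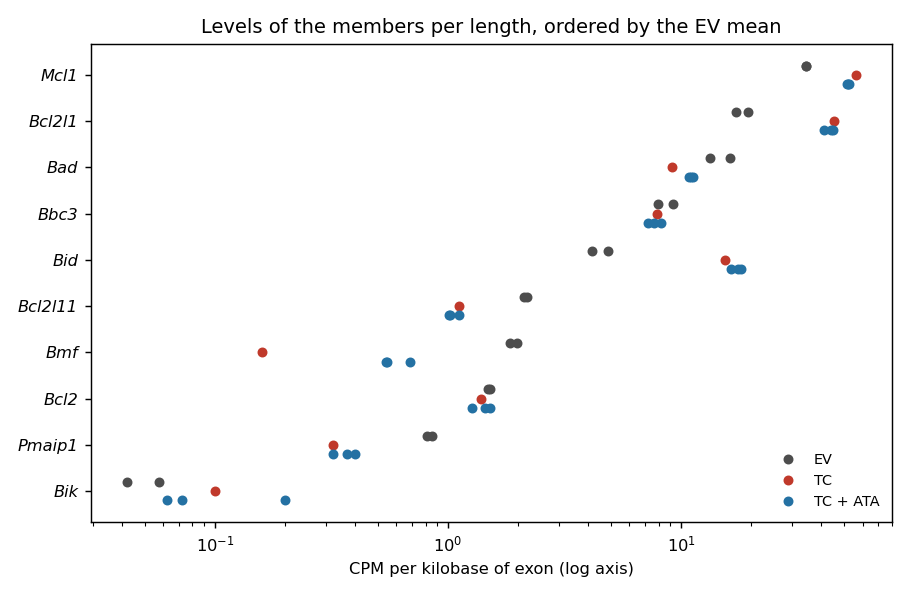
Level of each gene in CPM per kilobase of exon (x axis, log scale) in every library, with genes ordered by their EV mean from Mcl1 at 34.2 down to Bik at 0.0499. Bid and Bmf leave this order in the TC-expressing libraries, Bid to the right (15.4 in TC) and Bmf to the left (0.159 in TC).

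Summed over the 3 prosurvival genes, the level was 55.2 and 52.9 CPM per kilobase in EV, 103 in TC and 98, 96.9 and 94.4 in TC + ATA. The 7 BH3-only genes summed to 33.4 and 32.3 CPM per kilobase in EV, 34.1 in TC and 38.5, 39.1 and 36.9 in TC + ATA. The BH3-only sum was therefore 60.5% and 61.0% of the prosurvival sum in EV, 33.1% in TC and 39.3%, 40.3% and 39.1% in TC + ATA. These shares depended on the length used. By the longest transcript, those of the group means were 69.5% in EV, 35.6% in TC and 42.6% in TC + ATA. Bad, Bbc3 and Bid supply most of the BH3-only sum, so that the gain of Bid offset the losses of Bmf, Bcl2l11, Pmaip1 and Bad in it. These are sums of transcript levels over chosen genes, given without a test, and they do not describe protein levels.

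The next comparison asked how ATA altered these genes in TC-expressing cells. Bmf was the member called. It was 3.70-fold higher in TC + ATA than in TC (log2 fold change 1.89, SE 0.23, edgeR adjusted p = 0.0107), and all 3 treated libraries lay above the TC library. At the same limit, 1 of the 10 members was called higher and 0 lower, against 0.426% and 0.156% of all genes tested, and 0 members had a negative change at an unadjusted p under 0.05 in edgeR or a call in that direction in DESeq2. Those shares moved with the libraries in the fit, from 79 genes higher and 29 lower to 707 and 762 without the first EV library, 808 and 608 without the second, 28 and 12, 21 and 7, and 7 and 3 without TC + ATA replicate 1, 2 or 3, and 236 and 84 in DESeq2 with all libraries. The call of Bmf was lost without TC + ATA replicate 3 (log2 fold change 1.95, adjusted p = 0.0592 from edgeR), and over the 13 alternative analyses its log2 fold change ranged from 1.77 to 2.05 and its adjusted p from 6.47e-08 to 0.0592.

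The other members changed less in TC + ATA versus TC. Bad had a log2 fold change of 0.27 (95% interval 0.00937 to 0.538, edgeR adjusted p = 0.502), and it was called when the EV libraries were left out of the fit (adjusted p = 0.0273 from edgeR) and without the first or the second EV library alone (adjusted p = 0.035 and 0.027 from edgeR). Bid had a log2 fold change of 0.17 (95% interval −0.0628 to 0.404) and Pmaip1 of 0.17 (95% interval −0.503 to 0.842). For Bcl2l11 and Bbc3 the values were −0.09 (95% interval −0.35 to 0.171) and −0.03 (95% interval −0.309 to 0.242). The prosurvival genes had log2 fold changes of 0.02 for Bcl2 (95% interval −0.256 to 0.301), −0.07 for Bcl2l1 (95% interval −0.285 to 0.137) and −0.12 for Mcl1 (95% interval −0.276 to 0.044). The interval of Bik, −1.96 to 2.22, was too wide to tell. A difference between the response of Bmf and that of the other members was not tested.

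Compared with EV, the TC + ATA libraries had lower levels of Bmf, Bcl2l11, Pmaip1 and Bad and higher levels of Bid, Bcl2l1 and Mcl1. By edgeR, 3 members were called higher and 4 lower, whereas the shares over all genes tested were 18.0% and 18.6%. Bmf remained 3.23-fold lower in TC + ATA than in EV (log2 fold change −1.69, SE 0.14, edgeR adjusted p = 2.07e-05). Bcl2l11 had a log2 fold change of −1.04 (SE 0.09), Pmaip1 of −1.20 (SE 0.22) and Bad of −0.43 (SE 0.09), with edgeR adjusted p-values of 2.33e-05, 0.00241 and 0.00514. Bid was 3.86-fold higher (log2 fold change 1.95, SE 0.09, edgeR adjusted p = 5.74e-07). Bcl2l1 and Mcl1 had log2 fold changes of 1.24 (SE 0.08) and 0.60 (SE 0.06), with edgeR adjusted p-values of 3.7e-06 and 5.06e-05. Bcl2, Bbc3 and Bik were not called, with log2 fold changes of −0.09, −0.16 and 1.11 (edgeR adjusted p = 0.495, 0.241 and 0.306), although Bbc3 was called without the first EV library (log2 fold change −0.27, edgeR adjusted p = 0.0318). The comparison shares the EV libraries with TC versus EV.

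The pore-forming effector genes differed from each other. Bok, a BAX and BAK relative of which less is known, had 57.1 and 54.7 CPM in EV, 32.9 CPM in TC and 34.0, 34.6 and 34.4 CPM in TC + ATA. It fell in TC (log2 fold change −0.77, SE 0.08, edgeR adjusted p = 0.00019) and was lower in TC + ATA than in EV as well (log2 fold change −0.70, edgeR adjusted p = 2.65e-05). Bax had 108 and 105 CPM in EV, 116 CPM in TC and 137, 139 and 134 CPM in TC + ATA. It was called higher in TC + ATA versus EV (log2 fold change 0.36, SE 0.06, edgeR adjusted p = 0.00113) and not in TC versus EV (log2 fold change 0.13, edgeR adjusted p = 0.246) or TC + ATA versus TC (log2 fold change 0.23, edgeR adjusted p = 0.311). Once the EV libraries were left out of the fit, Bax was called in the last of these (adjusted p = 0.00462 from edgeR), as it was without the first or the second EV library alone (adjusted p = 0.00622 and 0.0048 from edgeR). Without the first EV library it was also called in TC versus EV (log2 fold change 0.14, edgeR adjusted p = 0.0451). Bak1 had 51.5 to 66.1 CPM over all libraries and was not called in any of the 3 comparisons, although without the first EV library it was called higher in TC versus EV (log2 fold change 0.27, edgeR adjusted p = 0.00555) and in TC + ATA versus EV (log2 fold change 0.30, edgeR adjusted p = 0.000718).

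Among the other BCL2-related genes, Bnip3 and Bcl2l13 were called in TC versus EV and Becn1 and Bcl2l12 in TC + ATA versus EV. Bcl2l2, which encodes the prosurvival protein BCL-W, had 33.4 to 46.9 CPM over all libraries and a log2 fold change of −0.17 in TC versus EV (edgeR adjusted p = 0.52). Bcl2a1a, Bcl2a1b, Bcl2a1d, Bcl2l10 and the BH3-only gene Hrk did not pass the filter on low counts and had at most 9 counts in any library. Bcl2a1a, Bcl2a1b and Bcl2a1d are near-identical copies, between which reads can be lost. Bcl2l14 and Bcl2l15 had at most 23 and 11 counts, with 0 counts of Bcl2l15 in TC, and neither was called. The mitophagy receptor genes Bnip3 and Bnip3l had log2 fold changes of −0.43 (edgeR adjusted p = 0.0258) and 0.07 (edgeR adjusted p = 0.645) in TC versus EV, and Bcl2l13 had 0.35 (edgeR adjusted p = 0.0246). The calls of Bnip3 and Bcl2l13 were each lost in 5 of 13 alternative analyses. Becn1, an autophagy gene with a BH3 motif in its protein, and Bcl2l12 were called in TC + ATA versus EV, with log2 fold changes of 0.19 and −0.77 (edgeR adjusted p = 0.0373 and 0.00398), and the call of Becn1 was lost in 6 of 13.

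Apart from the 10 members, 63 genes of the surrounding pathway were listed, of which 57 were tested. In TC versus EV, 13 were called higher and 9 lower by edgeR, with a median log2 fold change of 0.07, beside shares of 14.8% higher and 13.2% lower over all genes tested. In TC + ATA versus TC, 0 were called in either direction by edgeR or by DESeq2 with all libraries. By edgeR, the shares over all genes were 0.426% higher and 0.156% lower. An unadjusted p under 0.05 in edgeR was found for 4 of the 57, beside 1781 of all 18539 genes tested. DESeq2 with only the groups compared called 2 higher and 8 lower there, beside 722 and 732 over all genes. In TC + ATA versus EV, 14 were called higher and 10 lower, beside 18.0% and 18.6% over all genes. Single libraries moved these counts. Without the first EV library, 21 were called higher and 14 lower in TC versus EV, with 1 and 7 for TC + ATA versus TC and 22 and 13 for TC + ATA versus EV. Without the second EV library, they were 17 and 13, 2 and 3, and 15 and 17. Without TC + ATA replicate 1, 2 or 3 in turn, those called higher were 8, 7 and 8 in TC versus EV, 0 each time for TC + ATA versus TC and 5, 5 and 6 for TC + ATA versus EV.

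For the apoptosome, the caspases and the proteins released from mitochondria, 1 of 14 genes was called higher in TC than in EV and 3 lower. The shares of all genes were 14.8% and 13.2%. The initiator caspase gene Casp9 went from 14.1 and 12.6 CPM in EV to 7.98 CPM in TC (log2 fold change −0.74, SE 0.14, edgeR adjusted p = 0.00328). Casp6, an executioner caspase gene, had 30.5 and 27.7 CPM in EV and 17.3 CPM in TC (log2 fold change −0.75, SE 0.11, edgeR adjusted p = 0.000841). Htra2, which encodes a mitochondrial protease that binds IAP proteins, was higher in TC (log2 fold change 0.55, SE 0.10, edgeR adjusted p = 0.00333), and 753 of its 2946 exonic bases overlap Aup1 and 535 overlap Loxl3, both on the opposite strand. Among the 5 IAP genes, Birc2 and Birc3, which encode the ubiquitin ligases cIAP1 and cIAP2, fell (log2 fold changes −0.54 and −0.94, edgeR adjusted p = 0.0131 and 0.00361) and Birc6 rose (0.31, edgeR adjusted p = 0.0232), and the calls of Birc6 and Birc2 were lost in 7 and 2 of 13 alternative analyses. Aifm1, another of the 14 genes, was called higher in TC + ATA versus EV (log2 fold change 0.20, SE 0.06, edgeR adjusted p = 0.0316). Its call was lost in 5 of 13 alternative analyses.

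In the death receptor pathway, which feeds into Bid, 2 of 7 genes were called higher in TC than in EV and 0 lower by edgeR, against 14.8% and 13.2% of all genes. Tnfrsf10b, which encodes the mouse TRAIL receptor, had 23.4 and 24.4 CPM in EV, 37.9 CPM in TC and 36.5 to 38.1 CPM in TC + ATA (log2 fold change in TC versus EV 0.66, SE 0.09, edgeR adjusted p = 0.000474). Cflar, which encodes the caspase-8 inhibitor FLIP, had 51.6 and 58 CPM in EV, 81.6 CPM in TC and 70.4 to 73.3 CPM in TC + ATA (log2 fold change in TC versus EV 0.57, SE 0.09, edgeR adjusted p = 0.00148).

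Of 10 genes for binding partners and turnover of the members, 5 were called higher in TC than in EV and 0 lower by edgeR, while the shares of all genes were 14.8% and 13.2%. The largest increases were those of Dynll2, the dynein light chain that binds BMF (log2 fold change 0.68, SE 0.08, edgeR adjusted p = 0.000342), and Ywhae, a 14-3-3 gene (0.44, SE 0.10, edgeR adjusted p = 0.0101). Dynll2 had 226 and 214 CPM in EV, 353 CPM in TC and 325 to 345 CPM in TC + ATA, the reverse order of Bmf in EV and TC. Of the transcription factors known to act on BH3-only genes, 10 of 11 were tested, and 3 were called higher and 2 lower, against the same shares. Snai2, which encodes SLUG, a repressor of Bbc3, had 36.1 and 40.6 CPM in EV, 13.7 CPM in TC and 14.2 to 16.0 CPM in TC + ATA (log2 fold change in TC versus EV −1.49, SE 0.13, edgeR adjusted p = 4.09e-05). Foxo3, a known activator of Bcl2l11 and Bbc3, had 46.3 and 43.9 CPM in EV, 32.9 CPM in TC and 33.0 to 36.4 CPM in TC + ATA (log2 fold change −0.46, SE 0.10, edgeR adjusted p = 0.00779). Myc, Rela and Nfkb1 were called higher in TC, with log2 fold changes of 0.45, 0.35 and 0.24 (edgeR adjusted p = 0.00563, 0.0281 and 0.0455), and the calls of Myc, Rela and Nfkb1 were lost in 2, 7 and 9 of 13 alternative analyses. Those of Foxo3 and Ywhae were lost in 2 and 3.

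**Figure D4:**
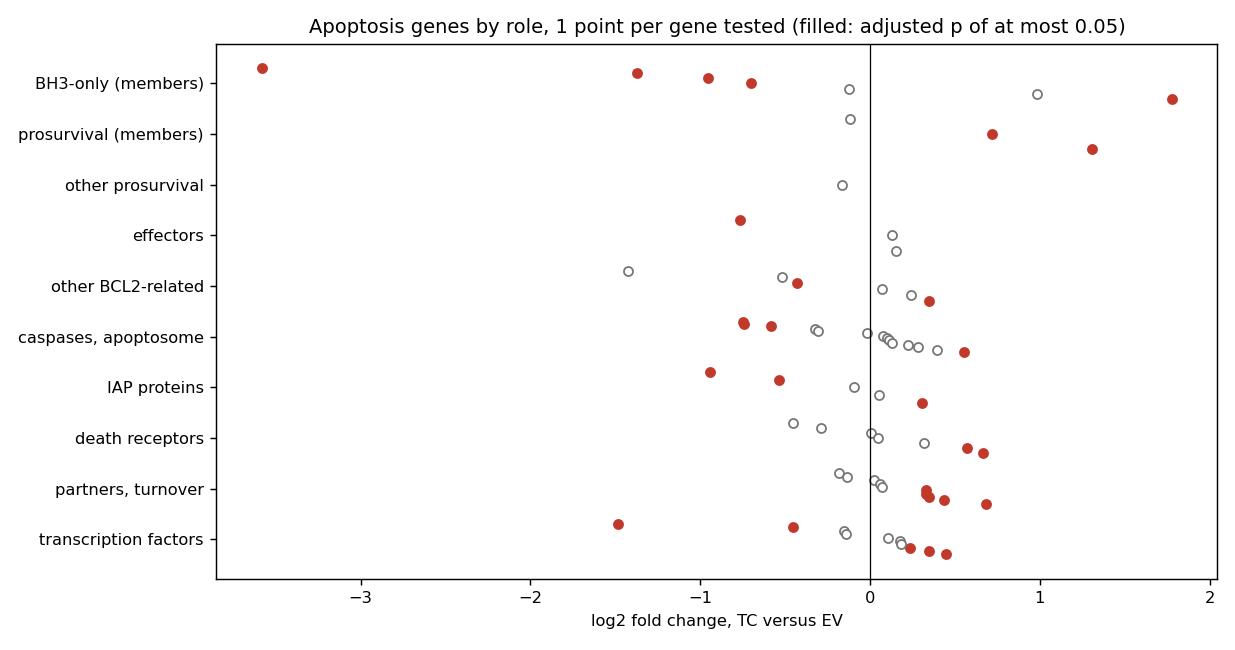
Log2 fold change in TC versus EV (x axis) of the members and of the surrounding pathway genes by role, with 1 point per gene tested and filled points for an adjusted p of at most 0.05 from edgeR. Bcl2l15, with 0 counts in TC, is left out, and Bmf (−3.58), Snai2 (−1.49) and Bid (1.78) are the 3 filled points farthest from 0.

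Among the 10423 other genes with a mean of at least 5 CPM, those with a profile over the 6 libraries most like that of Bmf were Actr3b, Adamts9, Slc1a3, Smoc2 and Abcd2. Likeness was measured as the root mean square difference of log2(CPM + 0.5), centred on its mean. It was 0.214, 0.232, 0.237, 0.31 and 0.313 for these genes. Pearson's r with Bmf was 0.97 to 0.986 over the 6 libraries, which fall into 3 groups and share their normalization. Slc1a3, a glutamate transporter gene, had 38.6 and 41.2 CPM in EV, 4.67 CPM in TC and 9.93, 9.55 and 9.85 CPM in TC + ATA, so that the TC + ATA libraries stood above TC and below EV. Since the 5 genes were picked for this profile over the same libraries, their changes are given as a description, without a test. In TC versus EV, the log2 fold changes were −2.90 for Actr3b, −2.59 for Adamts9, −3.10 for Slc1a3, −3.20 for Smoc2, which encodes a secreted calcium-binding protein, and −2.32 for Abcd2. For TC + ATA versus TC they were 1.21, 1.07, 1.07, 0.98 and 0.75 in the same order, each below the 1.89 of Bmf. The added 0.5 narrows differences at low CPM, so the profiles and these edgeR values are on unlike scales.

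**Figure D5:**
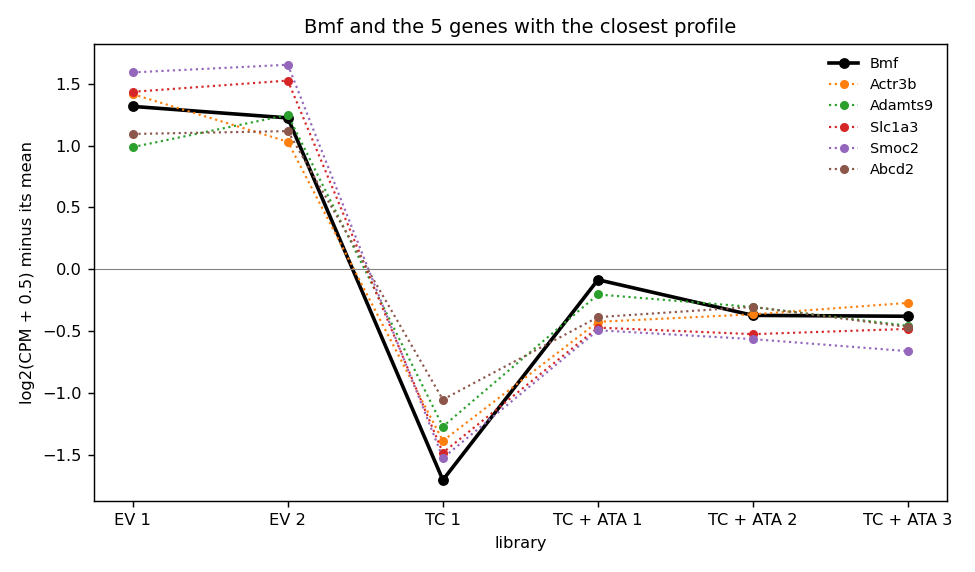
Profiles of Bmf (solid line) and of the 5 genes closest to it (dotted lines) over the 6 libraries, as log2(CPM + 0.5) minus the mean of the gene (y axis). All 6 are highest in EV and lowest in TC, and Bmf has the lowest TC value (−1.71).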

How the data were processed

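RNA was measured by bulk RNA-Seq in 6 libraries of NIH3T3 cells, and groups and replicate numbers were taken from the sample labels. The authors aligned paired-end reads to GRCm38.p6 (mm10) with HISAT2 2.2.1 (the version from the submitters' processing notes) and used featureCounts to assign reads to genes. The deposited files hold these raw counts per Ensembl gene, without normalization. The annotation release, the use of strand and the treatment of multi-mapped reads are not given in the sources used here.

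From these counts, all 6 libraries were fitted together in R 4.3.3 with edgeR 4.0.16 (TMM, filterByExpr, glmQLFit and glmQLFTest, 3 residual degrees of freedom), with Benjamini-Hochberg adjustment over the 18539 genes tested and a call at an adjusted p of at most 0.05. SEs and 95% intervals were derived from the F statistic. CPM are counts scaled to the library total over tested genes after TMM. Gene symbols, positions and exonic lengths came from GENCODE M21 (55141 of 55401 identifiers matched), where Ddit3 was taken at the identifier with the longer exons. Library totals had a median of 71053010 counts, and 3 counts are the smallest amount read as detected. Counting intervals are exact binomial and cover counting error only.

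Named genes were the 10 members, the related BCL2 family lists and the 5 genes most like Bmf. From each other pathway list, the 2 largest called changes in each direction were named for each comparison. The members and lists were chosen with earlier results of these data known. The fit was tested on counts simulated with the same dispersion in all groups. That setting does not cover the unequal spread of EV and TC + ATA in these data. The alternatives were DESeq2 1.42.0 (all libraries, or only the groups compared), edgeR on only the groups compared, a replicate block, other scalings (by library size or by the upper quartile) and other filters (none, or a minimum of 5 CPM in any 1 library), and each replicate of EV or TC + ATA was left out in turn. Where EV was left with 1 library, TC + ATA alone gave the spread, and EV and TC were assumed to vary like it.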

Additional observations from a re-analysis of the deposited data

How the results depend on the processing

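With TC as 1 library, the spread comes from EV and TC + ATA alone, and for Bik the low counts limit precision as well. Of 1134 values of single genes under 13 alternatives, 1019 kept their direction and their side of the threshold, 92 lost a call, 19 gained one and 4 changed sign. Apart from the members, the effectors and the genes most like Bmf, genes entered this tally only for comparisons in which the main fit called them. Gained calls of other genes are therefore not counted in it. The calls of Bmf, Bcl2l11, Bad, Bid, Bcl2l1 and Mcl1 in TC versus EV, and of these and Pmaip1 in TC + ATA versus EV, held in all alternatives that gave a value. Pmaip1 in TC versus EV lost its call with the replicate block (adjusted p = 0.0597 from edgeR) and in DESeq2 with only the groups compared. The sign changes were in TC + ATA versus TC, for Bcl2l1 (0.014) with the replicate block and without TC + ATA replicate 1 for Bbc3, Bik and Bcl2, whose values ranged from −0.0823 to 0.0117, from −0.56 to 0.424 and from −0.0294 to 0.0924 over the replicates left out. The causes were not tested.

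Counts of calls moved as follows, higher before lower. In TC + ATA versus TC, members called higher went from 1 to 2 in DESeq2 and in edgeR with only the groups compared (Bad joined Bmf) and to between 0 and 2 with a replicate left out. The pathway genes went from 0 and 0 to 2 and 8 in DESeq2 and 2 and 4 in edgeR with only the groups compared, and to between 0 and 2 and between 0 and 7 with a replicate left out. All genes went from 79 and 29 to 236 and 84 (DESeq2, all libraries), 722 and 732 (DESeq2, only the groups compared), 795 and 633 (edgeR, only the groups compared), 242 and 108 (no filter), 32 and 8 (replicate block) and, with a replicate left out, to between 7 and 808 and between 3 and 762, where the highest counts came without EV replicate 2 and without EV replicate 1 and the lowest without TC + ATA replicate 3.

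In TC versus EV, the pathway genes went from 13 and 9 to 4 and 5 in DESeq2 with only the groups compared, to 4 higher in edgeR with only the groups compared, to 5 higher with the replicate block and to between 7 and 21 and between 8 and 14 with a replicate left out. All genes went from 2735 and 2456 to 1318 and 1091 (DESeq2, only the groups compared), 1717 and 1467 (replicate block) and between 2162 and 3746 and between 1912 and 3708 with a replicate left out. In TC + ATA versus EV, the pathway genes went from 14 and 10 to 8 higher (library size scaling), 9 higher (no filter), 5 higher (replicate block) and between 5 and 22 and between 10 and 17 with a replicate left out, and all genes called lower went from 3449 to 2195 with the replicate block. EV and TC + ATA share the numbers 1 and 2. The deviations from the group means of libraries with the same number had correlations across genes of 0.0101 and −0.182. The 2 EV deviations mirror each other, so these values are not independent. Whether libraries with the same number were paired cannot be told from them. In TC, 6 of the 10 members kept their rank per length with the longest transcript in place of all exons.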
